A study of Caenorhabditis elegans with 2 samples.

Results

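The cytosolic ribosomal protein genes of Caenorhabditis elegans were taken as the annotated genes named rpl or rps with a number, with or without a decimal, together with rla-0, rla-1, rla-2 and ubl-1. There were 80 such genes among the 46890 annotated genes, of which 19973 are protein-coding, on the 6 chromosomes. The large subunit has 48 of them (all rpl genes and rla-0, rla-1 and rla-2, which encode the acidic stalk proteins) and the small subunit 32 (all rps genes and ubl-1, which encodes a small subunit protein fused to a ubiquitin-like domain). Another pair of genes, rpl-7A and rpl-36.A, carries similar names but falls outside the rule.

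Chromatin from whole young adults, 65 hours of age and grown from larvae that had been synchronised by starvation, was immunoprecipitated through GFP and sequenced (ChIP-seq). All animals were of strain RW12232, which has a CRISPR insertion of TY1, EGFP and 3xFLAG tags at the locus of F39B2.1, that is hinf-1, on chromosome I. There was 1 group with 2 biological replicates, no second condition. Signal from different tissues cannot be told apart in whole animals, and the deposited peak lists do not give the depth of sequencing.

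The ribosome is built from ribosomal RNA and these proteins, in nearly equal amounts, and their genes are among the most strongly transcribed of growing cells. In animals their messages are typically short, and several of the genes host small nucleolar RNAs (snoRNAs), which guide the modification of ribosomal RNA, within introns. HINF-1 is a zinc finger protein related to human HINFP, which activates histone H4 genes. Many worm transcripts are trans-spliced to a leader, so that an annotated 5′ end can be a splice site rather than the first transcribed base.

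Of the 8 deposited lists, the conservative list of 567 peaks compares the true replicates, the optimal list of 630 peaks comes from the pooled ranked list, and replicates 1 and 2 have thresholded lists of their own with 209 and 272 peaks. The thresholded peaks repeated at a global irreproducible discovery rate (IDR) of 0.01 or less. The thresholded lists leave out some peaks that pass this value, for a reason the files do not state. There were 129 such peaks absent from the conservative list, and none lay within 500 bp of the 5′ end of a ribosomal protein gene, inside one, or in the 250 bp past its 3′ end. The ranked list of both replicates and the pooled one were told apart by which thresholded peaks each holds. A gene was counted as having a promoter summit when the highest point of a peak lay within 500 bp of its annotated 5′ end. The signal value is the number that the authors' peak caller attached to each peak. It has no stated scaling, so it is compared within a list only, and the median of the conservative list was 64.7.

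Peaks lay at the promoters of ribosomal protein genes, inside the genes and just past their 3′ ends, and the region past the 3′ end carried the most. In the conservative list, 15 of 80 genes (18.75%) had a promoter summit, against 1.32% of protein-coding and 1.08% of all annotated genes. A summit inside the gene was present in 7 of 80 (8.75%), against 1.26% of protein-coding genes. A summit 1 to 250 bp past the 3′ end was present in 34 of 80 (42.5%), against 1.1% of protein-coding genes. At least 1 of these positions was occupied in 41 of 80 genes (51.25%), against 3.06% of protein-coding genes, and 39 genes had none. The region past the 3′ end was not part of the rule and was added after the data had been seen. Whether the same regions carry peaks in the control or in ChIP-seq of other GFP-tagged proteins was not tested.

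**Figure D1:**
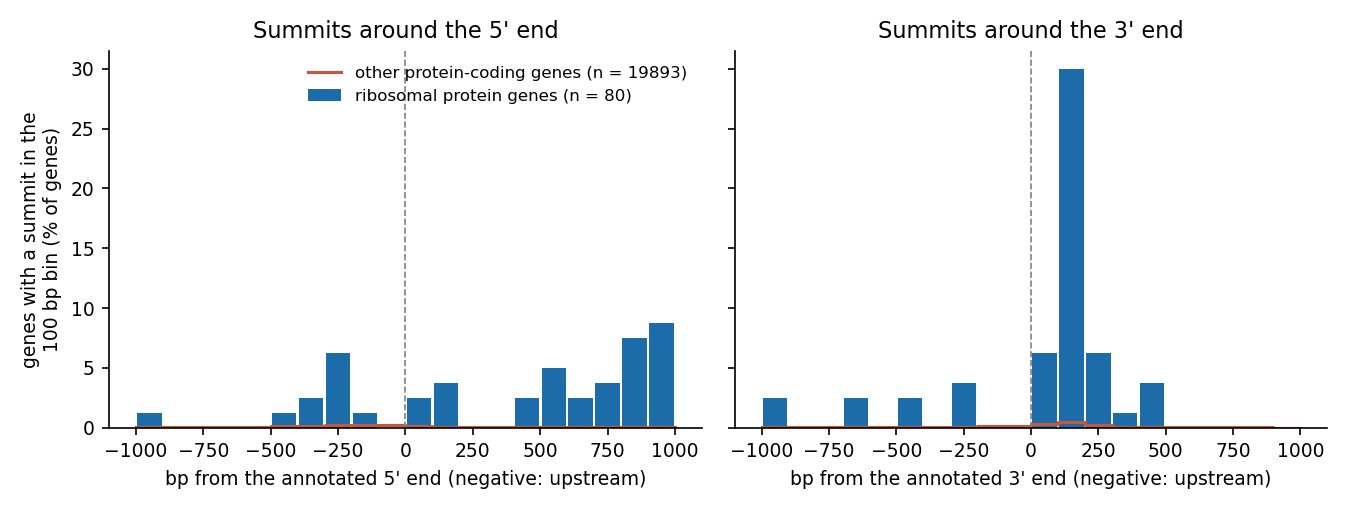
Share of genes with a conservative summit in each 100 bp bin from 1000 bp before to 1000 bp after the annotated 5′ end (left) and 3′ end (right); bars are the 80 ribosomal protein genes and the line the 19893 other protein-coding genes. The tallest bar, 24 genes or 30% of the ribosomal protein genes, lies 100 to 199 bp past the 3′ end, where 0.483% of the other genes had a summit; the bars beyond 500 bp on the left are largely the 3′ ends of these short genes.

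The promoter summits were at 10 of 48 large subunit genes (20.8%) and 5 of 32 small subunit genes (15.6%) in the conservative list. In the optimal list they were at 10 of 48 (20.8%) and 7 of 32 (21.9%), so the order of the subunits depended on the list. The strongest was at rpl-3, whose product lies near the peptidyl transferase centre. Its peak (chrIII:3867511-3867642, rank 15 of the list) had a signal of 263.3 in the conservative list, 129 in replicate 1 and 131.1 in replicate 2, and its summit lay 269 bp upstream in the conservative list and 266 and 267 bp upstream in the replicates. The replicates therefore placed this summit within a few bases of each other. The peak of rpl-35 (chrIII:7854560-7854789, 459 bp upstream) had signals of 139.7, 63 and 77.9 in the conservative list and replicates 1 and 2. That of rpl-15 (chrIV:654809-655038, 348 bp upstream) had 122.5, 42.4 and 81.7. That of rpl-20 (chrIV:4749991-4750220, 328 bp upstream) had 117.7, 48.6 and 67. These 4 large subunit genes were in the thresholded lists of both replicates with summits in the same region, although the 5′ end of Y17G9B.5 lay nearer to the rpl-20 summit, at 134 bp.

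Another gene, rpl-41.2, was counted in both replicates through different summits, 307 bp upstream (signal 33.8) in replicate 1 and 468 bp downstream (64.3) in replicate 2. In the conservative list it had both, at 263 bp upstream with a signal of 64.6 and at 472 bp downstream with 93.1. With this gene, 5 of 80 genes were called in both replicates, against 0.33% of protein-coding genes. Replicate 1 called 8 genes (0.546% of protein-coding genes) and replicate 2 called 10 (0.666%).

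The small subunit genes with a promoter summit were rps-23, rps-16, rps-1, rps-19 and rps-12, and none was in the thresholded lists of both replicates. The rps-23 peak (chrIV:12391200-12391429, 262 bp upstream), at the gene of a protein of the decoding centre, had a conservative signal of 85.6 and was in the list of replicate 2 (52) but not in that of replicate 1, where the ranked list gave 31.4. The rps-16 peak (chrV:15000389-15000618, 37 bp downstream) had 79.4, with 52.2 in replicate 1 and, in the ranked list only, 27.2 in replicate 2. The rps-1 peak (chrIII:4475536-4475765, 267 bp upstream) had 69.1, and the replicates gave 34.2 and 34.3, of which the first alone was in a thresholded list. Its summit lay 6 bp from the 5′ end of the noncoding gene F56F3.11. At rps-19 (65.5, 268 bp upstream) and rps-12 (64.7, 177 bp upstream) neither replicate list held the peak, and the 5′ ends of hsr-9 (177 bp) and ska-3 (116 bp) lay nearer. Of 32 small subunit genes, 1 was called in replicate 2 and 3 in replicate 1.

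Of the remaining large subunit genes, 4 had summits inside the gene, and rpl-43 had one past its end. The peak of rpl-12 (chrIV:13240524-13240753), which encodes a protein of the stalk base, had a conservative signal of 83.5 and its summit 12 bp past the 5′ end. The peaks of rla-1 (82.5, 198 bp), rpl-27 (82.2, 123 bp) and rpl-16 (56.9, 105 bp) lay further inside. All of these except rla-1 were in the list of replicate 2, and none was in that of replicate 1. The rpl-43 summit (115.7, chrII:14155653-14155882) lay 474 bp downstream, at the annotated first base of xrn-2, which encodes a nuclear exonuclease. Since rpl-43 and rpl-41.2 are short, their downstream summits also lay past the 3′ end and are counted there as well.

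**Figure D2:**
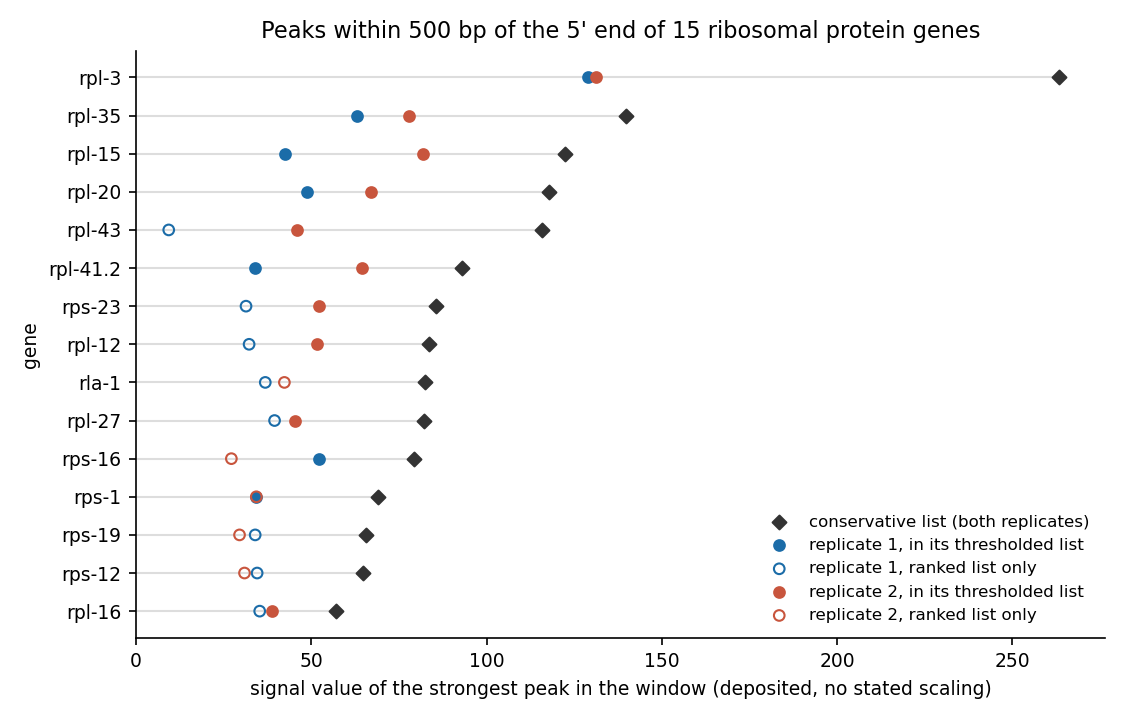
Deposited signal value of the strongest peak within 500 bp of the 5′ end, for the 15 ribosomal protein genes called in the conservative list; diamonds are the conservative list, filled circles replicate peaks that passed the replicate's own threshold and open circles replicate peaks of the ranked list only. rpl-3, at 263.3, stands above the other 14 genes, which lie between 56.9 and 139.7. At rpl-43 and rpl-41.2 the replicate 1 circle is a different peak from that of the diamond.

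Of all 80 genes, 85% had a ranked peak within 500 bp in replicate 1, against 47.7% of protein-coding genes. In replicate 2 the shares were 91.25% and 45.2%. All 15 conservative genes had some such peak in both replicates, which their choice from a list comparing the replicates makes likely. It was not always the conservative peak. In replicate 1 it lay 266 bp upstream at rpl-43 (9.3) and 307 bp upstream at rpl-41.2, far from their strongest conservative summits. Of the 15 genes, 5 were in both replicate lists, 2 in that of replicate 1 only, 5 in that of replicate 2 only and 3 in neither. The optimal list called 17 genes, against 1.48% of protein-coding genes. It added rps-26 (70.6, 422 bp upstream) and rps-20 (49.7, 423 bp downstream). The rps-26 peak had 58.3 in replicate 1, 430 bp upstream. In replicate 2 the strongest ranked peak within 500 bp of rps-26 had 7.15 and its summit elsewhere, 339 bp upstream. Of the 15 conservative genes, 14 had a peak at or above the median signal of the list. These are 17.5% of the 80 ribosomal protein genes, against 0.816% of protein-coding genes.

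The 9 upstream summits lay at a median of 268 bp before the 5′ end, and 5 of the 16 gene and summit pairs (31.25%) fell between 260 and 269 bp upstream, at rpl-3, rps-1, rps-19, rps-23 and rpl-41.2. Of the 256 pairs at other protein-coding genes, 7 (2.73%) fell in that interval, and their median upstream distance was 202 bp. The interval was drawn around the observed distances, so this contrast is a description only.

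The sequence within 50 bp of 7 of the 9 upstream summits is shown because 6 of these windows share short words that are rarer at other summits. The windows of rps-12, rps-19 and rpl-41.2 lacked them, and that of rps-12 is shown as an example. Each is 101 bases of WBcel235 on the strand of its gene, with coordinates counted from 1. Capitals mark 8 shared words of 7 letters, on either strand, many of which overlap. Of the 549 other conservative summits, 6 held ACACTCG within 50 bp, 3 GAGTGTA, 22 TACCGTA, 15 AACACGC, 7 ACGGTAA, 7 AAGTGTA, 6 AGTGTAT and 6 CATACAC.
rpl-3, chrIII:3867535-3867635, plus strand: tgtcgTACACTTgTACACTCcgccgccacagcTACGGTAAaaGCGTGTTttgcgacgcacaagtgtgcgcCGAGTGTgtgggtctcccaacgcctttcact
rps-1, chrIII:4475601-4475701, plus strand: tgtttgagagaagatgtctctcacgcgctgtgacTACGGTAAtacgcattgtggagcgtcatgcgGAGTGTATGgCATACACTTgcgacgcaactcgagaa
rpl-20, chrIV:4750056-4750156, minus strand: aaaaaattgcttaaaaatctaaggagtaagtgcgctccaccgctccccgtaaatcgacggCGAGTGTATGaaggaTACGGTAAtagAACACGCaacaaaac
rps-23, chrIV:12391265-12391365, minus strand: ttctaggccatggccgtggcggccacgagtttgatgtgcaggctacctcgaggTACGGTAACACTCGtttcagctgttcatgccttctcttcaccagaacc
rpl-35, chrIII:7854625-7854725, plus strand: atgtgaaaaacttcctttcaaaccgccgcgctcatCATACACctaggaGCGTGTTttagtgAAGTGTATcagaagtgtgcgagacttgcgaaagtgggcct
rpl-15, chrIV:654874-654974, minus strand: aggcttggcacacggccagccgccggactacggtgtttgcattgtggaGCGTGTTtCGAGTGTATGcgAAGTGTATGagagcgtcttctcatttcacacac
rps-12, chrIII:5679071-5679171, plus strand: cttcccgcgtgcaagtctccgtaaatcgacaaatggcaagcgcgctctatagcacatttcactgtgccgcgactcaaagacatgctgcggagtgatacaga

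These words, as well as AAAAAAT, which is not marked, were picked because each occurred in at least 4 of the 18 windows around ribosomal protein summits, so those counts are a description. The 8-letter TACGGTAA, which joins ACGGTAA and the reverse complement of TACCGTA, was present at rpl-3, rps-1, rpl-20 and rps-23, each time on the strand of the gene. It was present at 5 of 549 other conservative summits (0.911%) and at 277 of 89045 ranked peaks outside the conservative and optimal lists (0.311%). AGTGTAT was present at rps-1, rpl-35, rpl-15 and rpl-20, and at 6 of 549 other conservative summits (1.09%) and 1.02% of the other ranked peaks. Either ACGGTAA or AGTGTAT occurred at 6 of the 9 upstream summits and at 13 of 549 other conservative summits (2.37%). The upstream windows of rps-12, rps-19 and rpl-41.2 had none of the 8 words. The 9 upstream windows had a median GC content of 54.5%, against 45.5% at the other conservative summits, and its part in these shares was not tested.

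The same words were counted in the 500 bp before every 5′ end, whether or not a peak was there. TACGGTAA was present before 13 of 80 ribosomal protein genes (16.25%) and before 1.97% of other protein-coding genes. The 13 include the 4 genes whose summit windows led to the choice of its words. TACGGTAA was also present before 9 of the 65 genes without a promoter summit (13.8%). In those 9 genes, the divergent pair rps-10 and rpl-24.1 sharing a site, ACGGTAA lay on the strand of the gene in 2 and on the other strand in 7. Of the 8 distinct sites 1 lay within 50 bp of a ranked summit, that of rpl-21 at 30 bp, whose ranked peak was the strongest among the ribosomal protein genes that no thresholded list named at the promoter or inside the gene (signal 52.7, 325 bp upstream). ACACTCG was present before 13 of the 65 (20%) and before 2.55% of other protein-coding genes. AGTGTAT was present before 4 of the 15 genes with a promoter summit, 0 of the 65 without one, and 5.45% of other protein-coding genes. Those 4 genes are the ones whose summit windows led to the choice of AGTGTAT, so the 4 of 15 was set by that choice. Another 10 words, listed with earlier results of these data known and searched on both strands, were found at 0 to 2 of the 18 summits. CGTCCG, a core of human HINFP sites, was at 0 of 18 and at 2.37% of the other conservative summits, and it lay before 2 of 80 ribosomal protein genes and 4.54% of other protein-coding genes. Its longer form ACGTCCG was at 0 of 18 and at 0.546% of the other conservative summits, and the E-box CACGTG at 0 of 18 and 3.1%. The count was also 0 of 18 for CCGCCC (4.74% of the other conservative summits), GGGACACA (3.1%) and TTTCTCG (6.56%). These shares are low, so 0 of 18 shows no absence particular to ribosomal protein summits. The word GAGAGA occurred at 2 of 18 and at 55 of the 549 other conservative summits, TTTCAG at 2 of 18 and 62 of 549, GCGCGC at 2 of 18 and 43 of 549, while TGATAA occurred at 1 of 18 and 21 of 549. A word match is no evidence of a binding site.

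Outside the rule, rpl-7A had a conservative promoter summit 88 bp upstream (chrIV:4390563-4390792, signal 111.4, rank 63), and its window had none of the shared words. The other gene with a similar name, rpl-36.A, had no conservative summit at its promoter or inside it.

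Inside the gene, the 7 genes were rpl-27, rla-1, rpl-16, rpl-12 and rps-16, already given through their promoter summits, and rps-13 and rps-23. The rps-13 summit lay 688 bp past the 5′ end with a signal of 38.7, and the internal rps-23 summit 527 bp past it with 33.7. Both were among the weaker conservative peaks, at ranks 553 and 555. The optimal list had summits inside 8 genes (1.39% of protein-coding genes). It had rpl-14 (50.6) and rps-20 (49.7) in addition, and lacked the internal summit of rps-23. Replicate 1 had 3 (rps-13, rps-23 and rps-16), against 0.411% of protein-coding genes. Replicate 2 had 3 (rpl-27, rpl-16 and rps-0, with rps-0 at 21.6), against 0.521%. No gene was in both, and the overlap over all protein-coding genes was not counted.

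The 34 genes with a summit past the 3′ end comprised 24 of 48 large subunit genes (50%) and 10 of 32 small subunit genes (31.25%). In the optimal list the counts were 23 of 48 (47.9%) and 14 of 32 (43.75%). The 34 summits were distinct. They lay 35 to 243 bp past the annotated end, with a median of 149 bp and quartiles of 122.25 and 187.5 bp. Beyond 500 bp past the 3′ end, no ribosomal protein gene had a conservative summit in any bin up to 1000 bp. In the 1000 bp before the 3′ end, each bin held at most 3 genes.

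The 9 strongest of these, named after their values were seen, begin with rpl-4, which encodes a protein lining the exit tunnel. Its peak (chrI:4645459-4645536, 139 bp past the end, rank 25) had signals of 174.1 in the conservative list, 86.9 in replicate 1 and 87.7 in replicate 2. The nearest 5′ end of any other gene, that of lmd-2, was 881 bp from its summit. The second peak of rpl-15 (chrIV:653217-653446, 148 bp) had 145.5, 62.2 and 94.4, and lay 89 bp from the 5′ end of K11H12.1. The peak of rps-6 (chrI:13953216-13953445, 128 bp), the gene of the classical substrate of S6 kinase, had 134.7, 58.2 and 74, and the nearest other 5′ end lay 1455 bp away. These peaks were in the thresholded lists of both replicates.

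The rpl-43 peak described above, 199 bp past that gene, had 68.2 in replicate 1 and 46 in replicate 2, so that it was in both replicate lists although only replicate 2 placed its summit within 500 bp of the 5′ end. The peak of rpl-29 (chrIV:13882637-13882866, 134 bp) had 108.9, 55.8 and 57.8, and lay 18 bp from the 5′ end of thoc-7. rpl-3 had a second peak 95 bp past its end (99.2, 39.6 and 65.7). The peak past rpl-41.2 had 93.1 and 64.3 in replicate 2, with a ranked 26.9 in replicate 1. The peak past rps-20 had 92.8 and 64.5 in replicate 2, with no ranked peak there in replicate 1, and that past rpl-27 had 91.7, 35.6 and 57.2.

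**Figure D3:**
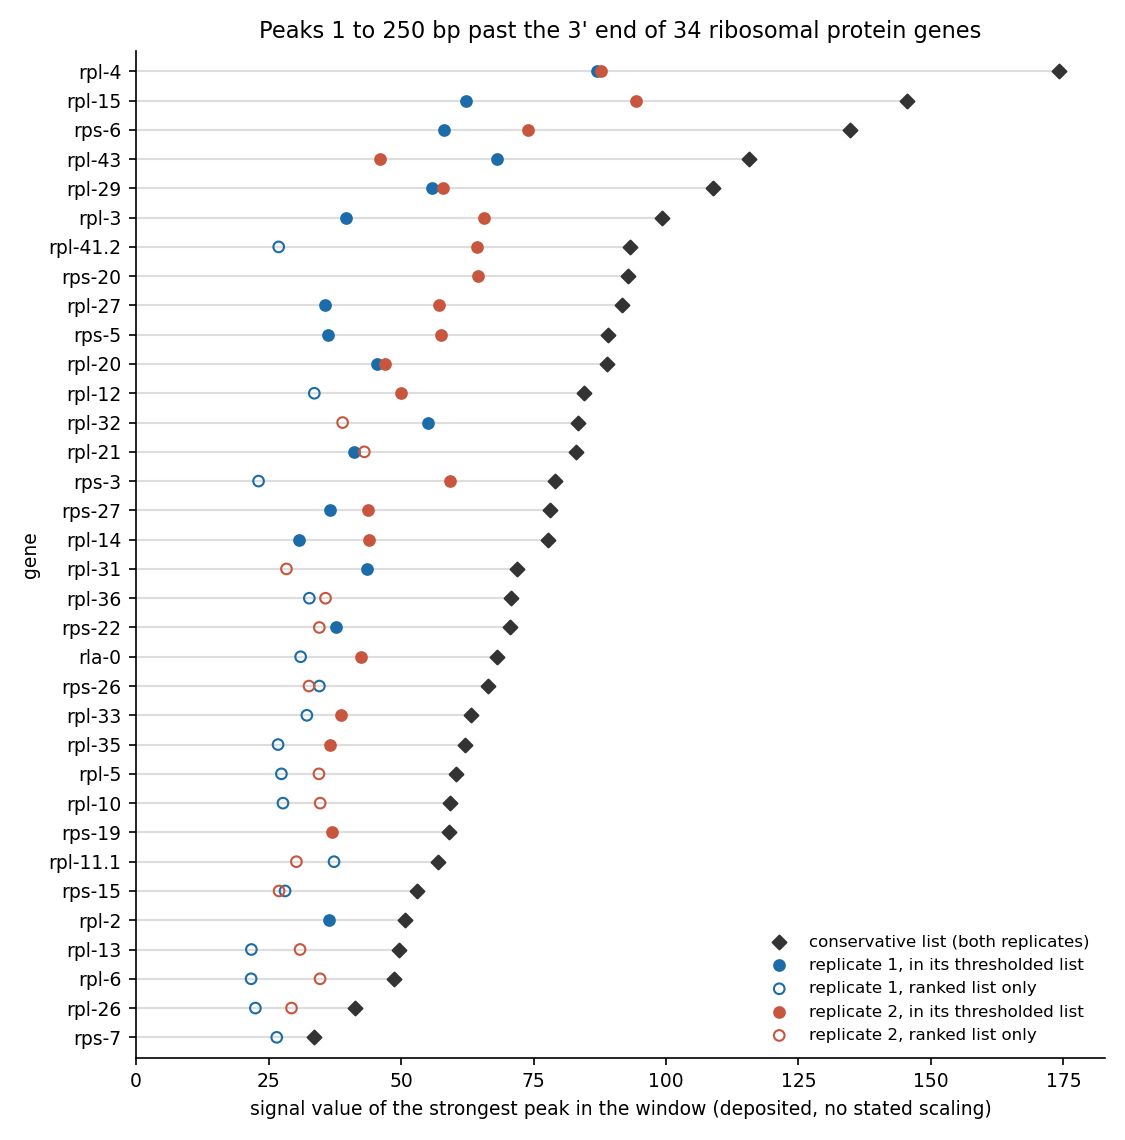
Deposited signal value of the peak 1 to 250 bp past the 3′ end for 34 ribosomal protein genes; symbols as in the plot of promoter peaks, with no circle where a replicate had no ranked peak. Conservative signals run from 33.6 at rps-7 to 174.1 at rpl-4, and genes with filled circles for both replicates lie mostly in the upper part.

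Both replicates held such peaks. The list of replicate 1 called 16 of 80 genes (0.406% of protein-coding genes) and that of replicate 2 called 20 (0.531%), with 11 in both (0.215%). The optimal list called 37 genes (1.18%). Of the 34 genes, 30 had a ranked peak in this region in both replicates. The ranked signals ran from 21.7 to 86.9 with a median of 35.1 in replicate 1, and from 27 to 94.4 with a median of 42.7 in replicate 2. Among the highest 1% of ranked peaks, 37 genes had such a summit in the ranked list of both replicates (1.35% of protein-coding genes), 25 in that of replicate 1 (0.726%) and 24 in that of replicate 2 (0.721%). With the region extended to 500 bp, the conservative list called 37 genes, against 1.35% of protein-coding genes.

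A neighbouring 5′ end was near many but not all of these summits. The nearest 5′ end of another gene lay within 250 bp of 17 summits, including those of cyc-2.1 (32 bp from the summit past rpl-20, 88.8) and pigk-1 (68 bp from that past rps-5, 89). It lay farther away for the other 17. Among ribosomal protein genes with another protein-coding 5′ end from 100 bp before to 500 bp past their 3′ end, 17 of 36 (47.2%) had a summit past the 3′ end, and without such a neighbour 17 of 44 (38.6%) had one. For the other protein-coding genes the shares were 61 of 4026 (1.52%) and 125 of 15867 (0.788%). The share was thus higher at ribosomal protein genes in both settings.

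The 3′ windows did not share the words of the upstream windows. TACGGTAA was at 1 of the 32 summits past 3′ ends that were not also counted at a promoter (rpl-6), and AGTGTAT at 0 of 32. Their median GC content was 39.6%. The windows of rpl-15, rpl-29 and rps-27 are shown as examples without a shared word, from peaks of both replicate lists that do not overlap an annotated untranslated region, printed as above.
rpl-15 3′ end, chrIV:653282-653382, minus strand: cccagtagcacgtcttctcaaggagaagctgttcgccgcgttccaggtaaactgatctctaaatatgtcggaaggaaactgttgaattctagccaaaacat
rpl-29 3′ end, chrIV:13882702-13882802, plus strand: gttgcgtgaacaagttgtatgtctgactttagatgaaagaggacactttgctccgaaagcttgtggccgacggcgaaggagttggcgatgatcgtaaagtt
rps-27 3′ end, chrV:103195-103295, minus strand: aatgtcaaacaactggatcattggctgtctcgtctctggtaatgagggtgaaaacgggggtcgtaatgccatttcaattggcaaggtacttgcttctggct

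A summit at both ends was present in 9 genes (8 large and 1 small subunit), 6 at the promoter only, 25 past the 3′ end only and 40 at neither. Of the other protein-coding genes, 26 of 19893 had both. The genes are short, with a median of 755 bp against 2034 bp for other protein-coding genes, and 11 are 500 bp or shorter. A promoter window of 1000 bp called 32 genes (40%, against 2.04% of protein-coding genes), and of the 17 genes so added 14 had their 3′ summit in the wider window.

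In the ranked list of both replicates, which holds 89784 peaks without a threshold, 77 of 80 genes (96.25%) had a peak within 500 bp of the 5′ end. So did 66.6% of protein-coding genes. The strongest such peak of the ribosomal protein genes lay at a median position within the top 8.35% of the list, against 36.6% for the protein-coding genes with one. It was in the top 1% for 18 genes (22.5%, against 1.72% of protein-coding genes), in the top 5% for 31 (38.75%, against 6.28%) and in the top 10% for 43 (53.75%, against 11.3%). The pooled ranked list also had 18 in its top 1% (1.83%), that of replicate 1 had 16 (1.03%) and that of replicate 2 had 12 (0.981%). By subunit, replicate 2 had 11 of 48 large and 1 of 32 small subunit genes in its top 1%, and replicate 1 had 9 and 7. With a window of 250 bp, the median position was 31.9%, against 43.4% for protein-coding genes. In that window 14 genes (17.5%) were in the top 10%, against 6.57% of protein-coding genes.

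**Figure D4:**
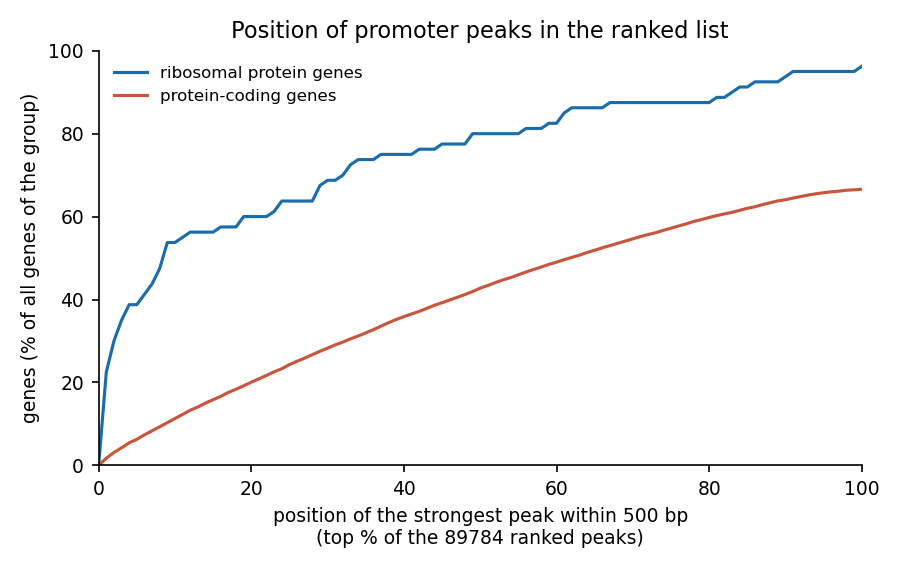
Cumulative share of genes whose strongest ranked peak within 500 bp of the 5′ end lies in the top given percentage of the 89784 peaks of the ranked list of both replicates. The curve of the 80 ribosomal protein genes reaches 53.75% at the top 10%, where that of protein-coding genes is at 11.3%.

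The other 60 genes were in no thresholded list at the promoter or inside the gene, and 57 of them had a ranked peak within 500 bp, with signals from 2.34 to 52.7 and a median of 26.9. The 10 strongest were rpl-21, rla-0, rps-4, rpl-4, rps-24, rpl-26, rps-17, rpl-33, rps-22 and ubl-1, with signals from 52.7 down to 41.5. Their −log10 IDR was 1.9 or less, below the value of 2 that the thresholded peaks reach. The pair rps-10 and rpl-24.1 shared 1 ranked peak (38.1), as did rps-14 and rpl-36 (26.9).

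Among the 13 ribosomal protein genes that host snoRNA genes on their own strand, 3 had a promoter summit, and among the other 67, 12 had one. Of the 19 hosted snoRNA genes, 3 (15.8%) had a conservative summit within 500 bp of their own 5′ end, against 44 of 327 other snoRNA genes (13.5%). These were F54E7.10 in rps-12, C16A3.11 in rps-13 and F28D1.13 in rps-23. The F54E7.10 summit is the rps-12 promoter summit given above, 257 bp upstream of the snoRNA gene and outside rps-12. Those of C16A3.11 and F28D1.13 are the internal summits of rps-13 and rps-23. The F28D1.13 summit lay at the last base of the snoRNA gene, and in replicate 1 the summit lay past that base, outside the snoRNA gene. The other 16, among them K11H12.12 and K11H12.13 in rpl-15, F54E7.11 in rps-12, F28C6.11 in rpl-26, B0041.9 in rpl-4, Y43B11AR.7 in rps-4, and H06I04.8 and H06I04.9 in ubl-1, had none. In the conservative list the share of hosted snoRNA genes was close to that of the others. Replicate 1 had 2 of 19 (10.5%), against 4.89% of other snoRNA genes, and replicate 2 had 0 of 19, against 7.65%.

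Other genes of translation had fewer conservative promoter summits than the ribosomal protein genes. Of 66 mitochondrial ribosomal protein genes 1 had one (mrpl-50, signal 66), of 38 translation factor genes 4 (eif-3.C 158.2, eef-1A.1 62.5, eef-2 60.2 and eef-1G 57.8) and of 46 ribosome biogenesis genes 3 (xrn-2 115.7, through the peak it shares with rpl-43, pro-1 78.8 and nola-3 72). These promoter shares were 1.52%, 10.5% and 6.52%, against 1.32% of protein-coding genes. Past the 3′ end the counts were 1 of 66 (1.52%), 4 of 38 (10.5%) and 2 of 46 (4.35%), against 1.1% of protein-coding genes. In this list the translation factor and biogenesis shares were thus above those of protein-coding genes at both ends, through few genes. At the promoter, replicate 1 called 0 of 38 translation factor and 2 of 46 biogenesis genes, and replicate 2 called 2 of each. At or above the median signal of the conservative list, 1 of 38 (2.63%) and 3 of 46 (6.52%) remained, against 0.816% of protein-coding genes. No test compared these lists.

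Nearly all of these regions are unique in the genome. The median share of 31-mers found once in the genome, within 250 bp of the 5′ end, was 1 for genes with and without a promoter summit, and the lowest were rpl-37 (0.65) and rpl-2 (0.813), both without one. Of the 34 peaks past 3′ ends, 32 consisted wholly of such 31-mers, with rpl-2 at 0.595 and rpl-21 at 0.62.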

How the data were processed

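HINF-1 ChIP-seq was described from 8 deposited peak lists on ce11 (2 replicates, 1 group). Per the file headers, the lists came from filtered alignments; the peak caller is not given in the sources used here. The signal is the authors' own value per peak, and the deposited ranked lists give −log10 of the global IDR. The ranked lists' 32 columns with values of unnamed peak sets were not used, nor was the control named in the labels. The depth is unknown from these lists.

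Genes came from Ensembl release 115 and bases from the WBcel235 genome, which is ce11. Summits are the start plus the offset of the peak list. Shares were set beside those of all protein-coding genes; no test was made, since genes of 1 group are not replicates. Members, lists and words were chosen with earlier results of these data known. Named were all genes called at the promoter or inside the gene, the 10 strongest ranked outside the thresholded lists, the snoRNA genes hosted by named genes, and up to 4 members of other lists. The counting was tested on simulated peaks. Alternatives were each replicate's list, other lists, windows and 5′ ends. Python 3.11.15, numpy 2.4.6, pandas 2.3.3 and matplotlib 3.10.9 were used.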

Additional observations from a re-analysis of the deposited data

How the results depend on the processing

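Of 48 alternative values, 25 stayed near the value given above and 23 moved. For counts, near meant a change of at most 1.5-fold, so that 10 promoter genes in place of 15 stayed near. The values are counts, shares and list positions, which have no direction to turn. Using the list of 1 replicate alone gave 8 to 10 genes with a promoter summit (5 to 9 large and 1 to 3 small subunit), 3 to 3 inside the gene, 16 to 20 past the 3′ end, 0 to 2 hosted snoRNA genes and median ranked positions of 12.4% to 13.9%. These lists are shorter. A window of 250 bp gave 6 promoter genes (4 large, 2 small), against 0.866% of protein-coding genes, and a ranked position of 31.9%, against 43.4%. A window of 1000 bp gave 32 (20 large, 12 small), against 2.04%. Giving each summit to the nearest 5′ end alone left 10 genes, 2 of them of the small subunit, against 0.931%. At or above the median signal, 4 genes had a summit inside (0.536% of protein-coding genes) and 22 past the 3′ end (0.531%). Within 100 bp, 1 of 19 hosted snoRNA genes (5.26%) had a summit, against 10.1% of other snoRNA genes. ACGGTAA lay before 5 genes without a promoter summit when 250 bp before to 50 bp after the 5′ end were searched, in place of 9. No paired analysis was possible because the study has a single group. The words and the region past the 3′ end were chosen after seeing the data. The 2 replicates and unknown depth limit the precision, and an uncalled gene is not shown to be unbound.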
